A study of Mus musculus with 10 samples.

Results

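The small leucine-rich proteoglycans (SLRPs) were examined as 8 genes picked by symbol, *Dcn*, *Bgn*, *Lum*, *Fmod*, *Ogn*, *Prelp*, *Aspn* and *Kera*, out of 55359 genes in the deposited table. The study knocked down *Fndc1*, which encodes a fibronectin type III domain protein, in C2C12, a mouse myoblast line whose cells fuse into myotubes when serum is reduced. The libraries were 5 of cells given a control siRNA (si-Control) and 5 of cells given an siRNA against *Fndc1* (si-*Fndc1*), each at 100 nM, and all were collected after 4 days in 2% horse serum according to the sample labels. Both groups came from the same line with no other treatment named, and nothing in the labels says that the libraries of a group came from separate cultures, so p-values measure only the spread between these libraries. In bulk RNA, fewer cells of a type and less RNA per cell cannot be told apart.

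SLRPs are secreted proteins of the extracellular matrix, each built around a core of leucine-rich repeats. They bind collagen fibrils and influence fibril width and spacing, and several of them hold growth factors such as TGF-β in the matrix. In skeletal muscle, decorin and biglycan lie in the connective tissue around the fibres, and biglycan also binds the dystroglycan complex of the muscle membrane.

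Library totals ranged from 66771605 to 75995168 counts for si-Control and from 56332844 to 72839369 counts for si-*Fndc1*, the lowest being si-*Fndc1* replicate 5. The targeted gene was measured at 24.7 to 29.6 FPKM (fragments scaled to gene length and library size) in si-Control and at 18.7 to 23.5 FPKM in si-*Fndc1*, a mean ratio of 0.752. The summed level of 15 hepatocyte markers was 0.0457 to 6.45 FPKM in si-Control and 56.5 to 189 FPKM in si-*Fndc1*. The 13 of them that passed the filter on low values did so mostly through si-*Fndc1*, so their calls are not counted as support. Fold changes also fell with the GC content of the transcript, as described with the results they touch. In total, 13548 genes with a mean of at least 0.5 FPKM were tested in edgeR, and a gene was called at a Benjamini-Hochberg adjusted p under 0.05 over all of them.

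Of the 8 SLRP genes, 6 passed the filter on low values and 4 of these were called. *Dcn*, *Ogn* and *Aspn* rose and *Bgn* fell, against a background of 34.4% of all tested genes called, 17.3% higher and 17.2% lower. The median log2 fold change of the 6 genes was 0.20, and that of all tested genes was 0.0043. The FPKM ranges of both groups were apart for 4 of the 6 tested genes, against 25.1% of all tested genes. *Lum* and *Kera* were under the filter and are given by their levels.

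**Figure D1:**
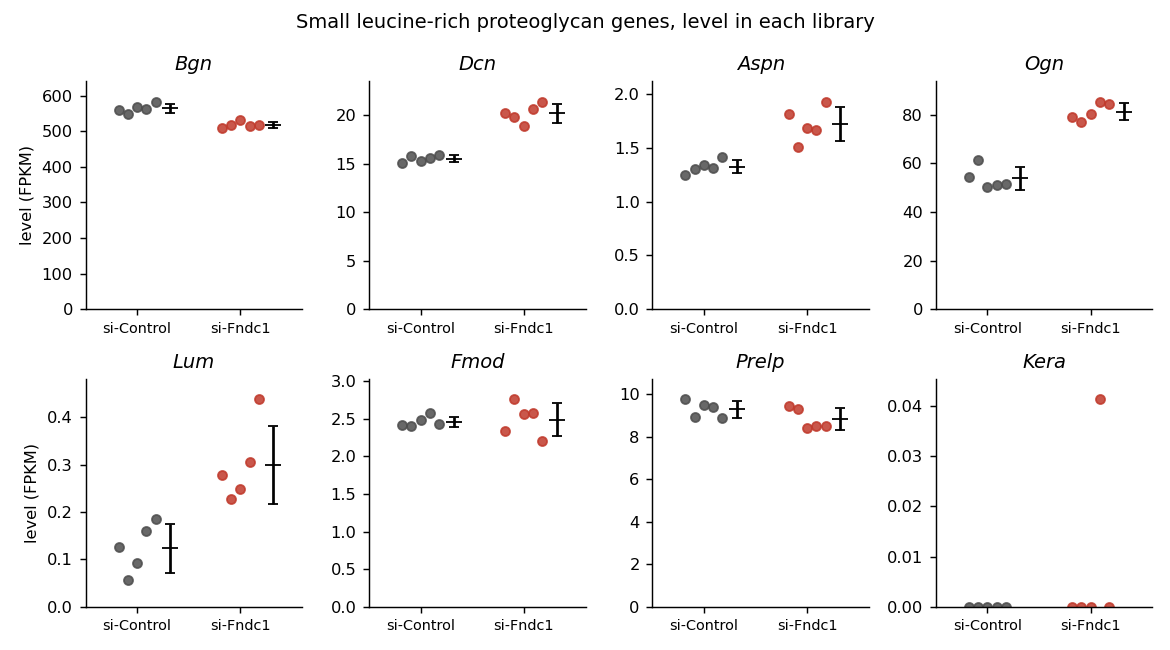
Level of each of the 8 SLRP genes in FPKM (vertical axis, linear from 0, with its own scale in each panel) in the 5 si-Control and 5 si-Fndc1 libraries. Points are libraries in order of replicate number, and the dash with bars is the mean ± SD, left out for *Kera*. The groups do not overlap for *Bgn*, *Dcn*, *Aspn*, *Ogn* and *Lum*, and they overlap for *Fmod* and *Prelp*.

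The genes were measured at very different levels per length. Among the tested genes *Bgn* ranked 52nd by mean FPKM, *Ogn* 621st, *Dcn* 2640th, *Prelp* 4706th, *Fmod* 9461st and *Aspn* 10877th. The order of mean FPKM was therefore *Bgn*, *Ogn*, *Dcn*, *Prelp*, *Fmod*, *Aspn*, *Lum* and *Kera* in si-Control, it was the same in si-*Fndc1*, and no 2 neighbours down to *Lum* overlapped within a group. The gap between *Ogn* and *Dcn* depends on the length used. The table implies a length of 6492 bases for *Dcn*, whereas its longest coding transcript in the reference annotation has 1758 bases. Scaled to reference transcripts, *Dcn* was at 57.2 ± 1.26 and *Ogn* at 60.4 ± 5.19 in si-Control (SD, n = 5), so their levels did not differ beyond their spread there. On the same scale *Dcn* was at 74.5 ± 3.50 and *Ogn* at 91.2 ± 3.96 in si-*Fndc1*. *Bgn* made up 85.9% to 87.9% of the summed FPKM of the 8 genes in si-Control and from 81.2% to 82.6% in si-*Fndc1*. This share depends on the length too, as the table implies 6781 bases for *Bgn* and its reference transcript has 2377. Scaled to reference transcripts, *Bgn* was at 1609 ± 35.8 in si-Control and 1477 ± 23.2 in si-*Fndc1*.

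Promoter sequence was found for 6 of the 8 genes in the RefSeq table of the build GRCm38.p6, and 3 are shown because *Ogn* and *Aspn*, which lie in 1 cluster on chromosome 13, rose while *Bgn* fell. Each run is the 250 bases upstream of the annotated start, 5′ to 3′, with matches to CANNTG (the E-box core bound by MyoD-family factors, which reads the same on both strands) in capitals. They lie at chr13:49607765-49608014 (plus strand) for *Ogn*, chr13:49544193-49544442 (plus strand) for *Aspn* and chrX:73483351-73483600 (plus strand) for *Bgn*.
*Ogn*: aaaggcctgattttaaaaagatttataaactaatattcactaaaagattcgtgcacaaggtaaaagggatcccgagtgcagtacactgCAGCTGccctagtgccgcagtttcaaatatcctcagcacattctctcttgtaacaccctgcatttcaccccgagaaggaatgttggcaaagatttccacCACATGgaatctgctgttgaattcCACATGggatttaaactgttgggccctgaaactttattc
*Aspn*: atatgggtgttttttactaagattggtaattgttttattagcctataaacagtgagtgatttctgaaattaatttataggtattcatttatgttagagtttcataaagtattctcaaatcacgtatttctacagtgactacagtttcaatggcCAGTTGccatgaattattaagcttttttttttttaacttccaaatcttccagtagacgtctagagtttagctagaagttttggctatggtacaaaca
*Bgn*: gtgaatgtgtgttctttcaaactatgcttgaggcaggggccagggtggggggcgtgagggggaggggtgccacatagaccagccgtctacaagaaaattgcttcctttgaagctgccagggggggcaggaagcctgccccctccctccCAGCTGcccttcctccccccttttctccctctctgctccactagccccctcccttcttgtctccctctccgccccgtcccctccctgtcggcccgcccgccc
The *Ogn* window held 3 matches and the *Aspn* and *Bgn* windows 1 each, and 66.2% of 32851 promoters of this length held at least 1. The letters TATAAA, searched on both strands, were in the *Ogn* and *Aspn* windows, not in that of *Bgn*, and in 12.4% of all promoters. GC content was 42% for *Ogn*, 30% for *Aspn* and 64.4% for *Bgn*, and the median promoter had 52.4%. The windows of *Fmod*, *Prelp* and *Kera* had GC contents of 51.2%, 55.6% and 42.4%. None of them held TATAAA, and only that of *Fmod* held a CANNTG match, 1. *Omd* and *Ecm2*, SLRP family genes of the same chromosome 13 cluster, had windows with 0 matches to either. Their GC contents were 38.4% and 40%. A match is a description of the letters and not of binding. *Dcn* and *Lum* are named only.

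*Dcn* encodes decorin, which carries a single chondroitin or dermatan sulfate chain, binds collagen fibrils and holds TGF-β and myostatin. *Dcn* was at 15.1, 15.8, 15.2, 15.6 and 15.8 FPKM in si-Control replicates 1 to 5. In si-*Fndc1* replicates 1 to 5 it was at 20.2, 19.8, 18.8, 20.6 and 21.4 FPKM. Every si-*Fndc1* library was above every si-Control library, and the lowest of them, replicate 3, stood well clear of the highest control. The mean went from 15.5 ± 0.340 to 20.2 ± 0.949 FPKM (SD, n = 5), a ratio of 1.30. The log2 fold change was 0.39 (SE 0.03, edgeR adjusted p = 2.93e-05), which placed *Dcn* 114th of the tested genes by p.

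*Bgn* encodes biglycan, the closest relative of decorin, which carries a pair of such chains. *Bgn* was at 560.5, 548, 567, 563 and 582 FPKM in si-Control. After *Fndc1* knockdown it was at 509.8, 516, 531, 514 and 517 FPKM. All si-*Fndc1* libraries lay under all controls, although the highest of them, replicate 3, came close to control replicate 2. The mean went from 564 ± 12.5 to 518 ± 8.14 FPKM (SD, n = 5), a ratio of 0.918, with a log2 fold change of -0.12 (SE 0.03, edgeR adjusted p = 0.00668). The change was smaller than the median absolute log2 fold change of 0.29 over the called genes. With quantile-normalized values in limma the log2 fold change of *Bgn* was -0.36.

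*Aspn* encodes asporin, a member of the decorin class that has a stretch of aspartate residues and lacks the usual site for a glycosaminoglycan chain. *Aspn* was at 1.25, 1.31, 1.34, 1.32 and 1.41 FPKM in si-Control. In si-*Fndc1* it was at 1.82, 1.51, 1.69, 1.67 and 1.93 FPKM. The groups did not overlap, with si-*Fndc1* replicate 2 nearest to the controls and replicate 5 farthest from them. The mean ratio was 1.30, as for *Dcn*, but with a wider error (log2 fold change 0.38, SE 0.09, edgeR adjusted p = 0.0076). *Aspn* rested on 245 to 251 reads in the si-Control libraries and 285 to 337 in the si-*Fndc1* libraries.

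*Ogn* encodes osteoglycin, also called mimecan, a shorter SLRP that is expressed in bone and in muscle. *Ogn* was at 54.4, 61.5, 50.1, 51.2 and 51.5 FPKM in si-Control. The si-*Fndc1* libraries gave 78.9, 77.1, 80.3, 85.3 and 84.3 FPKM. The groups stood far apart, and control replicate 2 was the highest of its group. *Ogn* had the largest change of the 6 tested genes, a mean ratio of 1.51 and a log2 fold change of 0.60 (SE 0.06, edgeR adjusted p = 4.12e-05).

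*Lum*, *Fmod*, *Prelp* and *Kera* belong to the class whose chains, where present, are of keratan sulfate. *Lum* encodes lumican, which spaces collagen fibrils in the cornea and skin. *Lum* was at 0.125, 0.0559, 0.0929, 0.160 and 0.185 FPKM in si-Control. It was at 0.279, 0.227, 0.248, 0.306 and 0.437 FPKM in si-*Fndc1*. The groups did not overlap, but the level was low in all 10 libraries, resting on 11 to 34 reads per si-Control library and 46 to 67 per si-*Fndc1* library. The mean ratio was 2.42, and a two-sided exact permutation test of the FPKM values gave p = 0.00794, the smallest that 5 against 5 allows. When all genes with a read were tested, the log2 fold change of *Lum* was 1.26 (SE 0.33, edgeR adjusted p = 0.0243).

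*Fmod* encodes fibromodulin, which binds collagen type I fibrils at a site shared with lumican. *Fmod* was at 2.40 to 2.57 FPKM in si-Control, with a median of 2.44. Its levels in si-*Fndc1* were 2.34, 2.76, 2.56, 2.58 and 2.21 FPKM. The si-*Fndc1* libraries fell on both sides of the controls, and their SD of 0.218 was wider than the control SD of 0.0701. The log2 fold change was 0.02 (SE 0.07, edgeR adjusted p = 0.824).

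*Prelp* encodes prolargin, which has a basic end that binds heparan sulfate and anchors basement membranes to connective tissue. *Prelp* was at 9.74, 8.91, 9.48, 9.38 and 8.85 FPKM in si-Control. In si-*Fndc1* it was at 9.45, 9.29, 8.40, 8.50 and 8.48 FPKM. The ranges overlapped, with si-*Fndc1* replicates 1 and 2 inside the control range and the other 3 under it. The log2 fold change was -0.06 (SE 0.05, edgeR adjusted p = 0.354).

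*Kera* encodes keratocan, a SLRP of the cornea. It had 8 reads in si-*Fndc1* replicate 4 and no read in the other 9 libraries, where a count of 0 allows up to 3 reads, or 0.0395 to 0.0533 CPM. No fold is given for *Kera*, whose reads came from 1 library. Intervals and floors of this kind cover counting error only.

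*Dcn*, *Ogn* and *Aspn*, which rose, had transcripts of lower GC content than the other 3 tested SLRP genes. GC content of the longest reference transcript was 34.4% for *Aspn*, 36.3% for *Ogn*, 42.0% for *Lum* and 42.4% for *Dcn*, and 52.3% for *Bgn*, 53.7% for *Fmod* and 53.8% for *Prelp*. Across all tested genes with a GC value the median log2 fold change went from 0.21 in the decile of lowest GC, which holds *Ogn* and *Aspn*, to -0.22 in the decile of highest GC. In the lowest decile 45.8% of genes were called higher and 1.25% lower. Within its own decile, *Ogn* lay 0.39 above the median on the log2 scale and above 96.4% of the genes. *Dcn* lay 0.25 above its decile's median and above 91.4% of the genes there. *Aspn* lay 0.18 above and *Bgn* 0.08 below their medians. *Fmod* and *Prelp* differed from theirs by 0.10 and 0.01.

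**Figure D2:**
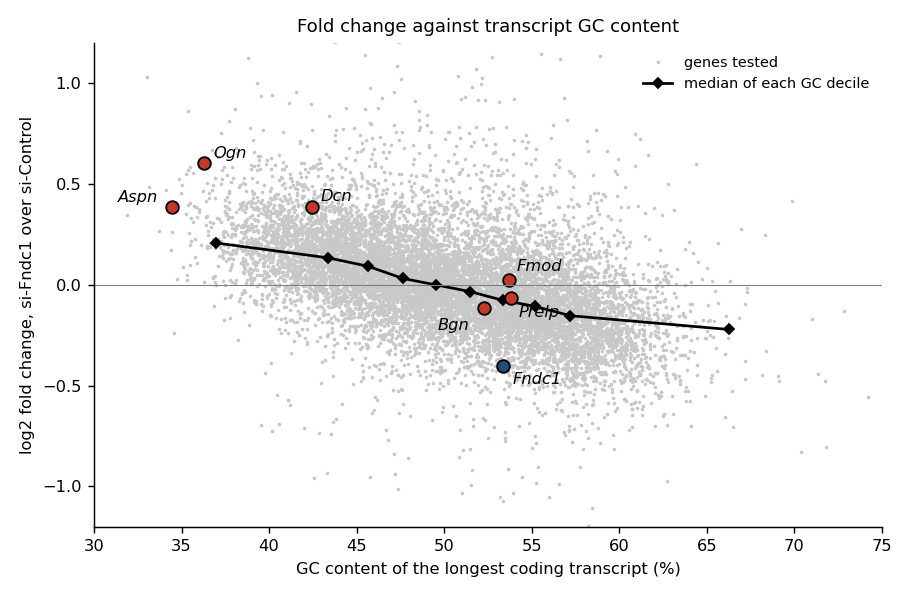
Log2 fold change of si-Fndc1 over si-Control (vertical axis) against the GC content of the longest coding transcript in percent (horizontal axis). Grey dots are tested genes, black diamonds join the median of each decile of genes by GC content at the middle of its range, red points are the 6 tested SLRP genes and the blue point is *Fndc1*. *Ogn* and *Aspn* are in the decile with a median of 0.21, and 94 genes beyond ±1.2 are not drawn.

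Each library's trend of counts with transcript GC content and with the length implied by the table was then taken out. *Dcn* and *Ogn* were still called, both higher, and *Aspn* and *Bgn* were not. In that fit 11.3% of 11185 genes were called higher and 11.4% lower. *Dcn* had a log2 fold change of 0.23 (SE 0.03, edgeR adjusted p = 0.0005). *Ogn* had one of 0.22 (SE 0.04, edgeR adjusted p = 0.00214), so its value was less than that without the correction. *Aspn* had one of -0.04 (SE 0.09, edgeR adjusted p = 0.776). *Bgn* had one of -0.03 (SE 0.02, edgeR adjusted p = 0.384). *Fmod* and *Prelp* had values of 0.08 and 0.01 and were not called in either fit. The median of the 6 genes was 0.05, and that of all genes in the fit was -0.0035. *Fndc1* itself had -0.22 in this fit and -0.40 without the correction.

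**Figure D3:**
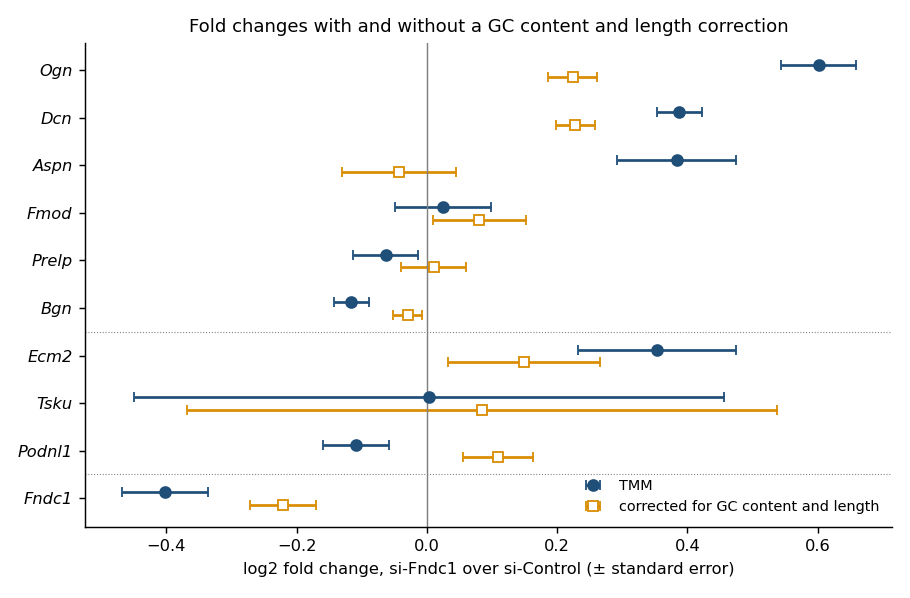
Log2 fold change of si-Fndc1 over si-Control with its standard error (horizontal axis) for the 6 tested SLRP genes, 3 other SLRP family genes and *Fndc1*, separated by dotted lines. Blue points are from edgeR with TMM scaling and open orange squares are from the fit corrected for GC content and length. *Ogn* moves from 0.60 to 0.22 and *Aspn* from 0.38 to -0.04 between the fits.

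Most SLRP genes lie in clusters, and coordinates are given as the table lists them; the table names no build, and the submitters' processing notes name GRCm39. *Dcn* (chromosome 10, 97315471 to 97354005), *Lum* (97400990 to 97408565) and *Kera* (97442741 to 97449554) form a cluster with *Epyc*, all on the plus strand. *Aspn* (chromosome 13, 49697919 to 49721041) and *Ogn* (49761522 to 49777977) lie with *Ecm2* and *Omd* in a cluster of 119.7 kb, also on the plus strand. *Prelp* (chromosome 1, 133838042 to 133849152, minus strand) and *Fmod* (133964992 to 133976015, plus strand) lie near *Optc*. *Bgn* (chromosome X, 72527208 to 72539539) has no other SLRP gene of the lists beside it. The tested genes of the chromosome 10 and 13 clusters, *Dcn*, *Ecm2*, *Aspn* and *Ogn*, were all higher in si-*Fndc1*. *Ecm2*, *Aspn* and *Ogn* are in the decile of lowest GC content, where 45.8% of genes were called higher. With the GC and length correction *Dcn* and *Ogn* were called and *Aspn* (-0.04) and *Ecm2* (0.15) were not. Of 9 other tested genes within 500 kb of the chromosome 13 cluster, 2 were lower and the rest were not called, with a median log2 fold change of -0.04. Over all tested genes 34.4% were called and 17.2% were lower.

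**Figure D4:**
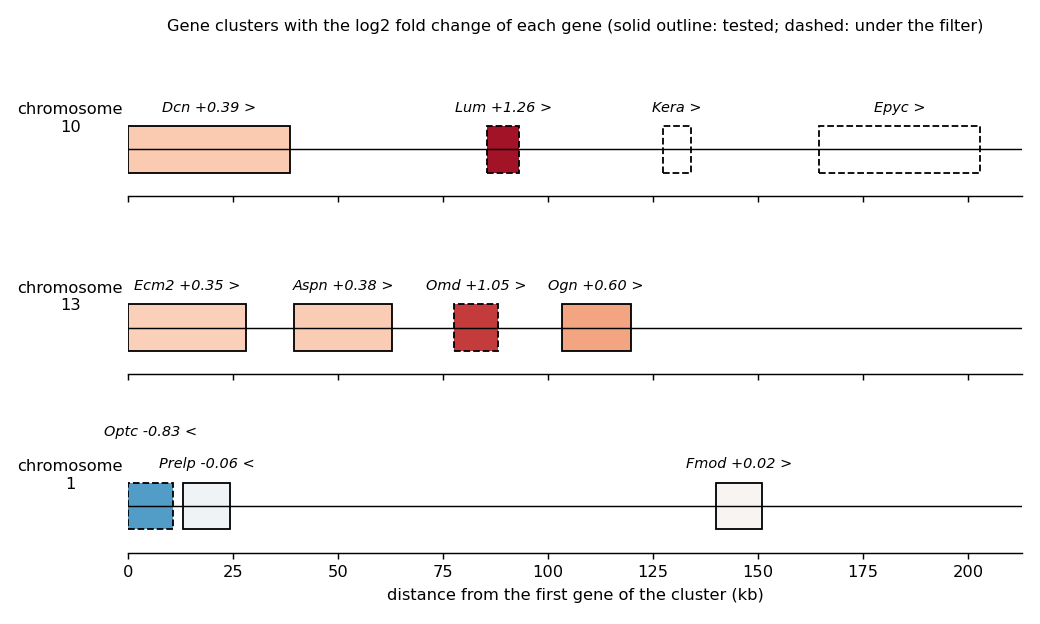
Position of SLRP genes in 3 clusters, as the distance in kb from the first gene of each cluster (horizontal axis), with the log2 fold change of si-Fndc1 over si-Control printed beside each name and shown as colour (red higher, blue lower). Dashed boxes are genes under the filter, with the value of the fit on all genes with a read, the empty boxes of *Kera* and *Epyc* are given no value, and arrowheads give the strand. *Dcn* (0.39), *Aspn* (0.38) and *Ogn* (0.60) stand in the chromosome 10 and 13 clusters, and *Prelp* (-0.06) and *Fmod* (0.02) in that of chromosome 1.

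All 4 genes of the chromosome 13 cluster overlap *Cenpp*, a centromere protein gene on the minus strand that spans 49617499 to 49806261. *Cenpp* was at 0.440 to 0.951 FPKM and was not called (log2 fold change 0.26, edgeR adjusted p = 0.372). The overlap is of whole gene spans, and shared exons were not looked for. Whether counting used the strand is not given in the sources used here. Without strand, reads from sequence that *Cenpp* shares with these genes cannot be told apart. *Ecm2*, at 0.461 to 0.801 FPKM, and *Omd*, at 0.104 to 0.597 FPKM, did not exceed the highest level of *Cenpp*. *Aspn*, at 1.25 to 1.93 FPKM, is nearer to the level of *Cenpp* than *Ogn* is. *Prelp* overlaps *Gm15851*, which had no read in any library.

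Of 10 other genes of the SLRP family, 3 passed the filter and 1 of these was called, a share near the 34.4% of all tested genes. *Ecm2*, next to *Aspn*, was at 0.461 to 0.663 FPKM in the controls and 0.666 to 0.801 FPKM in si-*Fndc1* (log2 fold change 0.35, SE 0.12, edgeR adjusted p = 0.0430), and the call was lost with the GC and length correction (0.15, edgeR adjusted p = 0.402). It was also lost on leaving out any library but si-Control replicates 2 and 4 (edgeR adjusted p of 0.0501 to 0.0952). *Podnl1* had a log2 fold change of -0.11 (SE 0.05, edgeR adjusted p = 0.119). *Tsku*, a secreted inhibitor of several signalling pathways, ranged from 1.35 to 7.95 FPKM in si-Control and from 2.89 to 7.82 FPKM in si-*Fndc1*, and the groups overlapped. *Omd*, or osteomodulin, between *Aspn* and *Ogn*, was under the filter at 0.175, 0.262, 0.316, 0.104 and 0.195 FPKM in si-Control. The si-*Fndc1* libraries were at 0.306, 0.597, 0.464, 0.378 and 0.441 FPKM, and only replicate 1 fell within the control range (two-sided exact permutation p = 0.0159). *Epyc* had no read in any library, and *Optc*, *Chad*, *Chadl*, *Nyx* and *Podn* stayed at mean levels of 0.532 FPKM or less in both groups, with overlapping ranges.

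SLRP core proteins receive their chondroitin or dermatan sulfate chains from enzymes of the Golgi, and 24 of 27 such genes were tested. Of these, 1 rose and 3 fell, with a median log2 fold change of -0.04, so that 4 of 24 were called against 34.4% of all tested genes. *Chpf2*, a chondroitin polymerizing factor, fell by 0.41 on the log2 scale (SE 0.03, edgeR adjusted p = 1.52e-05). *Xylt2*, a xylosyltransferase that starts the linker on the core protein, fell by 0.20 (SE 0.05, edgeR adjusted p = 0.00725). *Csgalnact2*, which adds the first chondroitin sugar, rose by 0.28 (SE 0.04, edgeR adjusted p = 0.000184). *Chst3*, the third that fell, was not called on leaving out any 1 of 7 libraries, all but si-Control replicates 2 and 5 and si-*Fndc1* replicate 5 (edgeR adjusted p of 0.0654 to 0.0856). With the GC and length correction *Chpf2* alone of the 24 was called, at -0.18. Of 5 tested keratan sulfate enzymes 1 was called, the sulfotransferase *Chst2*, which fell by 0.20 (SE 0.07, edgeR adjusted p = 0.0456) and was not called after the correction, nor on leaving out any library but si-Control replicate 1 and si-*Fndc1* replicate 2 (edgeR adjusted p of 0.0682 to 0.103).

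Proteases that process or cleave SLRPs, with their helpers, gave 8 tested genes of 14, and 3 fell, a share near the 34.4% of all tested genes called. *Bmp1*, which removes the propeptide of biglycan, had a log2 fold change of -0.23 (edgeR adjusted p = 0.000512) and was not called after the GC and length correction. *Mmp14*, a membrane-bound metalloproteinase, had -0.39 (edgeR adjusted p = 2.40e-05), and *Adamts5*, an aggrecanase, had -0.20 (edgeR adjusted p = 0.00035). Both were also called lower after the correction, at -0.23 each.

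Of 13 collagens that SLRPs bind, 10 were tested and these 10 were called lower, against 17.2% of all tested genes, with a median log2 fold change of -0.25. *Col1a1*, the main chain of fibrillar collagen type I, was at 358 to 401 FPKM in si-Control and at 202 to 227 FPKM in si-*Fndc1* (log2 fold change -0.78, SE 0.04, edgeR adjusted p = 5.57e-06). *Col5a1* and *Col5a3*, chains of the collagen that starts fibrils, had log2 fold changes of -0.38 and -0.41. After the GC and length correction the median was -0.06 and 2 of the 10 were called lower, against 11.4% of all genes in that fit, *Col1a1* at -0.52 and *Col5a1* at -0.10, while *Col6a1* and *Col6a2* had values of 0.02 and 0.10. *Col12a1* was not called on leaving out any 1 of 7 libraries, all but si-Control replicate 2 and si-*Fndc1* replicates 1 and 2 (edgeR adjusted p of 0.0546 to 0.0720).

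Growth factors and receptors bound by SLRPs gave 14 tested genes of 18, of which 1 rose and 3 fell (background 34.4% either way). *Lrp1*, an endocytic receptor for decorin, had a log2 fold change of -0.50 (edgeR adjusted p = 4.36e-05). *Igf1r*, a receptor that decorin binds, had -0.45 (edgeR adjusted p = 0.000197). *Tgfb3*, a ligand held by decorin and biglycan, had -0.20 (edgeR adjusted p = 0.00273), while *Tgfb2* rose by 0.17. With the GC and length correction these 4 were called in the same directions, *Lrp1* at -0.11, *Igf1r* at -0.16, *Tgfb3* at -0.16 and *Tgfb2* at 0.13. *Tgfb1*, at 0.09 without the correction (edgeR adjusted p = 0.108), was called higher with it, at 0.41 (edgeR adjusted p = 3.43e-05). The muscle membrane partners of biglycan were all tested, and 1 of 9 rose and 2 fell, near the background. *Utrn*, the dystrophin relative that biglycan brings to the membrane, had a log2 fold change of -0.34 (edgeR adjusted p = 0.000498). *Musk*, the receptor kinase of the neuromuscular junction, had -0.37 (edgeR adjusted p = 0.00136). Both were also called lower after the correction.

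**Figure D5:**
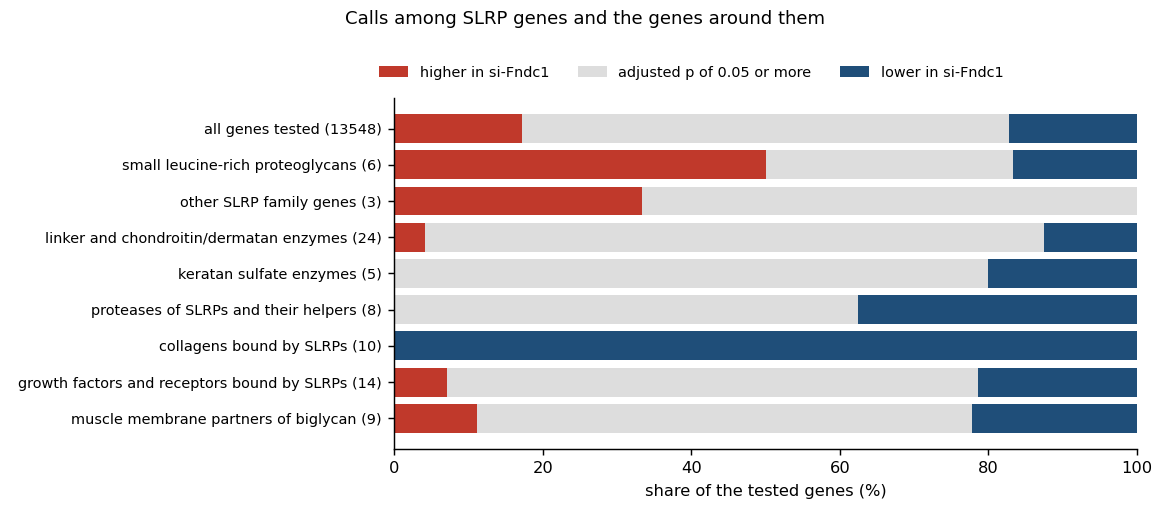
Share of the tested genes in each list (horizontal axis, %) that was called higher (red), called lower (blue) or not called (grey) in si-Fndc1 at an edgeR adjusted p of 0.05, with the number of tested genes in parentheses. The row of all genes tested is the background, with 17.3% higher and 17.2% lower. All 10 tested collagens are in the lower class, and 3 of the 6 SLRP genes are in the higher class.

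Markers of cell types were read beside these values, with 34.4% of all tested genes called as the background. Of 12 myotube markers 3 rose, among them *Ckm* at 0.39 and *Mylpf* at 0.42, and 1 fell, *Ttn* at -0.45, with summed levels of 6131 to 6455 FPKM in si-Control and 6409 to 7160 FPKM in si-*Fndc1*. Of 7 tested markers of undifferentiated myoblasts 1 rose, *Myod1* at 0.16, and their summed levels were 72.7 to 78.5 FPKM and 78.1 to 87.3 FPKM. Of 8 tested fibroblast markers 2 rose, *Ly6a* at 0.47 and *Mfap5* at 0.34, and 1 fell, *Pdgfrb* at -0.31, with summed levels of 298 to 358 FPKM in si-Control and 323 to 369.7 FPKM in si-*Fndc1*. *Ly6a* was not called on leaving out any 1 of 7 libraries, all but si-Control replicates 2 and 3 and si-*Fndc1* replicate 4 (edgeR adjusted p of 0.0549 to 0.108). Of 5 tested tendon markers 1 fell, *Tnc* at -0.23, with sums of 178 to 207 FPKM and 159 to 179.7 FPKM, and *Tnmd* had no read. Of 2 tested cartilage and bone markers 1 fell, *Runx2* at -0.23, with sums of 12.5 to 14.5 FPKM and 10.7 to 13.1 FPKM, and *Acan*, *Matn1*, *Ibsp* and *Alpl* had no read. With the GC and length correction several of these calls changed. *Ttn* was at 0.07 (edgeR adjusted p = 0.477) and *Ly6a* at 0.21 (edgeR adjusted p = 0.443), while *Myog* at -0.18 (edgeR adjusted p = 0.0217) and *Myf5* at -0.22 (edgeR adjusted p = 0.0153) were called lower. *Mymk*, the third myotube marker that rose, was not called in that fit (edgeR adjusted p = 0.116). Called higher in it were *Ckm* at 0.57, *Mylpf* at 0.26, *Des* at 0.10 and *Myod1* at 0.24. In all, 3 of 12 myotube markers were called higher and 1 lower. For 7 myoblast markers these counts were 1 and 1, and for 8 fibroblast markers 2 and 1. The tendon and the cartilage and bone lists each had 1 lower. Of all genes in that fit 11.3% were called higher and 11.4% lower. The part of these markers in the levels of SLRP genes was not tested.

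Hepatocyte markers separated the groups fully. Their sum was lowest in si-*Fndc1* replicate 5, at 56.5 FPKM, which was also the library of lowest total count. This library had the highest *Dcn*, *Lum* and *Aspn* of its group, while *Bgn*, *Fmod* and *Prelp* were highest in replicates 3, 2 and 1. The sum was 109.9 FPKM in replicate 1 and 188 to 189 FPKM in replicates 2, 3 and 4. *Ogn* was highest in replicate 4, where the sum was highest too. It was next highest in replicate 5, at 84.3 FPKM, and lowest in replicate 2, at 77.1 FPKM, where the sum was 189 FPKM. The part of the hepatocyte transcripts in the levels of SLRP genes was not tested. Of 6 markers of hepatic stellate cells, the SLRP-producing cells of the liver, *Des* alone was tested, and muscle cells express it too. It had a log2 fold change of -0.04 (edgeR adjusted p = 0.395) and, with the GC and length correction, of 0.10 (edgeR adjusted p = 0.0386). Its summed list was at 607 to 650.4 FPKM in si-Control and 569 to 631 FPKM in si-*Fndc1*. *Lrat* had no read in any library. *Ngfr* and *Rgs5* had 13 and 6 reads, each in 1 si-*Fndc1* library only, and 0 in every si-Control library. *Reln* had 25 to 47 reads in si-Control libraries and 4 to 48 in si-*Fndc1* libraries. *Colec11* had 0 to 12 and 0 to 16 reads, so both overlapped between the groups. Leaving out any 1 of the 10 libraries left the calls of *Dcn*, *Ogn*, *Aspn* and *Bgn* in place. Every si-*Fndc1* library held the hepatocyte transcripts, so leaving out 1 cannot tell them apart from the knockdown.

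For *Bgn*, the gene of highest level, the 5 tested genes that followed it most closely across the 10 libraries were *Rab11b-ps2*, *Has2os*, *Slx4*, *Tmc6* and *Pank4*. Their Pearson correlations with *Bgn*, after centring log2 CPM within each group, were 0.917, 0.908, 0.904, 0.892 and 0.889. The libraries share depth and scaling, and the values are a description of the closest among 13548 genes. *Tmc6* was called lower, as was *Bgn*, and the other 4 were not called.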

How the data were processed

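RNA of 10 C2C12 libraries, 5 si-Control and 5 si-*Fndc1*, was sequenced, and the groups and replicate numbers were taken from the sample labels. The 8 SLRP genes and all lists were chosen with earlier results of these data known.

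The authors deposited gene counts, not normalized, and FPKM values, which are listed as 0.0001 where no read was counted. The paper's methods name TopHat, mm10 and htseq-count and 4 libraries. The series description names STAR and mm9, and a harvest after transfection rather than after differentiation. The submitters' processing notes name cutadapt 1.9, FastQC and GRCm39. The deposited columns of gene annotation were used for symbols and coordinates only. The number of value columns without a sample was 0.

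Genes averaging 0.5 FPKM or more were kept, and their counts were compared in edgeR 4.0.16 (quasi-likelihood F test after TMM scaling, R 4.3.3) over all 10 libraries without a replicate term, with Benjamini-Hochberg adjustment over all tested genes. FPKM values of single genes were compared by two-sided exact permutation tests. A trend of log counts with GC content and length was fitted in each library by Huber regression on splines of 5 degrees of freedom, for the 11185 tested genes (82.6%) with both values, and used as an offset. GC content came from transcripts of NCBIM37, matched by identifier, and length from the ratio of deposited count to FPKM. Alternatives were RLE factors, DESeq2 1.42.0, other filters, a replicate block, limma 3.58.1 on log2(FPKM + 1) or log2(FPKM + 0.1), quantile normalization and leaving out each library. The methods were tested on simulated data.

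The genes named were the 8 SLRP genes, *Fndc1*, the other SLRP family genes, the 3 genes of smallest p in each list, up to 3 markers per marker list and the 5 genes most like *Bgn*. *Cenpp*, *Gm15851*, *Tgfb1*, *Tgfb2*, *Chst3*, *Col6a1*, *Col6a2*, *Col12a1*, *Myog*, *Myf5*, *Reln*, *Colec11* and some markers at 0 were named after their values were seen. A gene that this rule names is not reported here.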

Additional observations from a re-analysis of the deposited data

Results flagged for a closer look

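*Chst1*, a keratan sulfate sulfotransferase, was at 2.14 FPKM in si-Control replicate 5, apart from the other 4 si-Control libraries, which were at 3.03 to 3.36 FPKM. The gap to the nearest of them was 0.734 of the range of the group, above Dixon's critical value of 0.710 for 5 libraries. It was the 1 library set apart among 68 groups of 5 examined, and chance sets apart about 1 group in 20.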

How the results depend on the processing

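With RLE factors, DESeq2, no filter, a filter at a mean of 5 FPKM, limma on FPKM and each library left out, the SLRP genes called numbered 3 to 5 (4 in the main analysis), because *Aspn* failed the filter at 5 FPKM and *Lum* entered without a filter. Leaving out 1 library gave 4 to 4 called, 3 to 3 higher and 1 to 1 lower. It gave 4000 to 4627 genes called in all (4663 with all libraries) and 22 to 28 called in the 6 lists of interacting genes (25). The FPKM of 5 to 5 SLRP genes differed at a permutation p under 0.05. These included *Lum*, which was under the filter, and the share of all genes under that p was not computed. The 3 fits with a GC and length correction, on 11185 genes, each called 2 SLRP genes, with 0 lower, and *Aspn* was at -0.043, -0.043 and -0.042. They were the correction alone (2538 genes called in all, 14 in the lists), with the replicate block (1645 and 11) and on deviations from gene means, added after seeing the data (2546 and 15). At an unadjusted p under 0.05 the correction gave 2 SLRP genes higher and 0 lower, and edgeR without it on the same genes called 4 of the SLRP genes and 4244 genes in all, of which 1804 were also called with it. DESeq2, without it, called 1 SLRP gene lower.

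The replicate block alone left the 4 SLRP calls, with *Bgn* at an edgeR adjusted p of 0.0409 and *Aspn* at 0.0379, and called 3572 genes in all. Libraries of the same number shared only a number, since their deviations correlated at -0.04 to 0.05 and 1 of 5 correlated best with its own. Depth limits *Lum*, *Omd* and *Kera*, which had at most 67, 110 and 8 reads in a library.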
